A study of Mus musculus with 6 samples.

Results

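The genes described here are 39 genes of S phase DNA replication, listed by name: the factors that license origins of replication, the proteins of the replication fork, the enzymes that supply nucleotides, and regulators of entry into S phase. All 39 were found by symbol among the 52089 symbols of the deposited table, on 307 of its 168021 transcript lines. They were measured in primary brite adipocytes, the thermogenic adipocytes that arise in white fat. The cells were grown from the stromal vascular fraction of inguinal white adipose tissue of 129SvEv mice, males of 5 to 6 weeks of age. The cells of all 6 libraries had been induced for 2 days with rosiglitazone present and were reverse transfected on day 1 of differentiation with 50 nM of a locked nucleic acid (LNA) gapmer, an antisense oligonucleotide that directs cleavage of its target RNA. In the knockdown (KD) group the gapmer was ASO1, directed against transcript 1 of the long noncoding RNA Ctcflos, and in the control group it was nontargeting. Each group has 3 libraries, made from total RNA 24 h after transfection. The sources do not say whether they came from separate animals or cultures, so p-values measure the spread between these libraries, which may be technical. Each group rests on 1 oligonucleotide, and an effect of the loss of Ctcflos cannot be told apart from another effect of ASO1. The cultures hold cells at several stages of differentiation, and in such bulk RNA a change in the number of cycling cells cannot be told apart from a change in RNA per cell.

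Before DNA is copied, origins are licensed in G1: the origin recognition complex recruits CDC6 and CDT1, which load the ring-shaped MCM2-7 helicase onto DNA. In S phase CDC45 and the GINS complex activate that helicase, primase and polymerase alpha start each strand, and the sliding clamp PCNA, loaded by replication factor C, holds the other polymerases on DNA. Many of these genes are transcribed in a burst at the G1/S border by E2F transcription factors once cyclin-dependent kinases have inactivated RB proteins, and preadipocytes in culture are known to pass through rounds of division, called mitotic clonal expansion, after adipogenic induction.

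The promoters of the first called members that hold an E2F motif are shown here because E2F motifs, which the choice of genes did not use, were found in most but not all of these genes. Sequences were taken from RefSeq (GRCm38.p6), where 32 of the 39 genes have a promoter window of 300 bases, from 250 bases before to 50 bases after the start of the gene. Each line gives the 280 bases from 250 before to 30 after the start, 5′ to 3′ on the strand of the gene, with each match to an E2F motif in capitals. The E2F motifs, each searched on both strands, were TTCCCGC and the variants with other letters in the middle, which read TTGGCGC for the first, TTCGCGC for the next and TTGCCGC for the last.
Mcm3, chr1:20820283-20820562, minus strand: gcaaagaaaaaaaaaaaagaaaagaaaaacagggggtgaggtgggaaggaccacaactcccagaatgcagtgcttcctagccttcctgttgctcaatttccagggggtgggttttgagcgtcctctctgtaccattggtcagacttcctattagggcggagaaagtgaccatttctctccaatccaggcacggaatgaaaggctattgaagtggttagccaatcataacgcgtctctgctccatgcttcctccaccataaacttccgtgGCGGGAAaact
Rfc3, chr5:151651179-151651458, minus strand: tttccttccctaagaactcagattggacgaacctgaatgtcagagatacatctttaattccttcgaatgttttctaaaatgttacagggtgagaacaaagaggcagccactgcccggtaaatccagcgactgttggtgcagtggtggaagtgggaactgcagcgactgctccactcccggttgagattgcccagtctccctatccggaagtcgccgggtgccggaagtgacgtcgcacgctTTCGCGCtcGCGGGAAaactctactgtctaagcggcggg
Cdt1, chr8:122567765-122568044, plus strand: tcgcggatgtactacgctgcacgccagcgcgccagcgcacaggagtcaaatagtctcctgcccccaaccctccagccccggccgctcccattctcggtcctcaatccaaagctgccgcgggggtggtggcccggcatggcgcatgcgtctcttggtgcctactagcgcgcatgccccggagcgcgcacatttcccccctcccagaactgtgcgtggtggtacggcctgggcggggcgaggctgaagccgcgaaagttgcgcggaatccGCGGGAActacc
Gins3, chr8:95633309-95633588, plus strand: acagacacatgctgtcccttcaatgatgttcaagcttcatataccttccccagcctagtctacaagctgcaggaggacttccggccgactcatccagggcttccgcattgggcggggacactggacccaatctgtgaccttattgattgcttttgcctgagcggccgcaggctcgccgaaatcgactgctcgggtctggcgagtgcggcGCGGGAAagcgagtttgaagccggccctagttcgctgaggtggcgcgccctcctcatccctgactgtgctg
In Mcm3 and Cdt1 the printed match lies just inside the transcribed sequence, starting at base 20 and base 19 after the start. Their full windows of 300 bases hold 3 and 2 matches. In Rfc3 the first match begins 9 bases before the RefSeq start and a further one follows directly. In Gins3 the match begins 41 bases before the RefSeq start. The Gencode spans of Rfc3 and Gins3 given below begin further upstream, at 151651242 and 95633453, and include these matches, so their position depends on the annotation.

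Across the 32 genes with a window, 20 held an E2F motif (62.5%), against 10.9% of 27025 genes with a window and 19.9% of the 6950 genes that were also tested for abundance. The CCAAT box, searched on both strands, was found in 59.4% of the S phase genes, against 41.1% and 43.8%. An E2F motif was present in 7 of 8 members that were higher in KD, in both of the 2 that were lower, in 5 of 13 that were not called and in 6 of 9 whose mean abundance was under 1 RPKM. Motifs were thus found in members that differed in either direction, as the plot of promoter shares shows. Mcm2, which was higher in KD, had no E2F match in its window. Overlapping matches were counted separately, and a match of letters is a description of the sequence, not evidence of a bound factor.

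**Figure D1:**
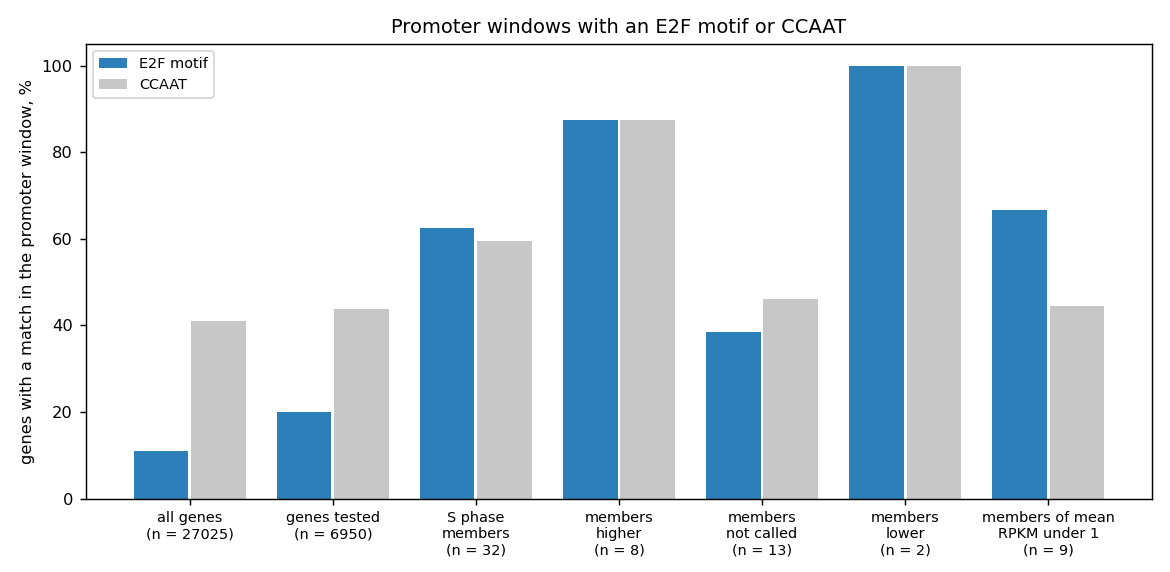
Share of genes (y axis, %) whose 300-base RefSeq promoter window holds an E2F motif (blue) or CCAAT (grey), for all genes with a window, genes tested for abundance, and S phase genes by their call in Ctcflos KD. The E2F share is 62.5% in S phase genes and 10.9% in all genes, and the group sizes under the bars fall to 2 for members that were lower.

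Abundance is given in RPKM, a read count divided by transcript length in kilobases and by the mapped reads of the library, as the mean over all transcript accessions of a gene. Depth, recovered from the values, was 60.8 to 79.2 mio reads per library. The targeted Ctcflos (1300015D01Rik) was at 0.0969, 0.0705 and 0.210 RPKM in KD 1 to 3 and at 0.748, 0.751 and 0.840 in control 1 to 3. All KD libraries were below all controls, at 16.1% of the control mean (log2 fold change -0.66 ± 0.084 SE, adjusted p = 0.0254, fit without a filter). This call held without KD 3 (0.00973) and was lost without any other library, at adjusted p-values of 0.0619 to 0.130. Summed adipocyte markers (8 genes, among them Adipoq and Fabp4) were at 4270 to 5686 RPKM in KD and 5955 to 6618 in controls, and summed brite markers (5 genes) at 61.6 to 81.0 and 108 to 166. Summed macrophage and leukocyte markers (7 genes) were at 27.7 in control 2 and 16.2 in KD 3 against 6.66 to 8.43 in the other libraries, mostly from Lyz2. Of these genes Cd68 alone was called, higher in KD, while Ptprc stayed under 0.05 RPKM and Cd3e was listed at 0 in every library. Markers of endothelial cells summed to at most 1.63 RPKM, and those of red cells were listed at 0. The 7 stromal genes summed to 185 to 406 RPKM in KD and 282 to 456 in controls, mostly from Ly6a. Of 5 tested, 3 had a negative and 2 a positive log2 fold change, and Pdgfra alone was called, lower in KD.

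Replication genes moved in both directions in Ctcflos KD, with licensing factors among those that rose and Rfc2, a subunit of the clamp loader, among those that fell. Of the 39 genes, 27 reached a mean of 1 RPKM and were tested with the other genes by limma-trend on log2(RPKM + 1). Of these, 9 were higher in KD at a Benjamini-Hochberg adjusted p under 0.05 (Cdt1, Mcm2, Mcm3, Mcm6, Mcm7, Gins3, Rfc3, Rrm2 and Ccne2), 3 were lower (Rfc2, E2f2 and Dnmt1) and 15 were not called. Over all 11701 genes tested, 11.5% were called higher and 12.4% lower, 24% in all. All KD libraries were above all controls in 13 of the 27 and below them in 5, where 22.9% and 21.9% of all genes were, and 9 overlapped. A positive log2 fold change was found in 20 of the 27 and in 53.2% of all genes tested. The median log2 fold change of the 27 was 0.20 and that of all genes tested 0.03. The other 12 genes had a mean under 1 RPKM. Their values come from a second fit that kept low genes (called the fit without a filter), in which 4.71% of 38335 genes were called: Cdc45 and Prim2 were lower, and 10 were not called.

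These calls depend on control 1 and on control 3. Without control 1 or control 3, none of the 27 was called by limma, and calls over all genes dropped to 3.71% and 3.62%. An unadjusted p under 0.05 by limma was found in 13 and 15 of the 27, against 3342 and 3352 of all 11701 genes. Without KD 1, 3 members were called higher and 1 lower, with 9.96% of all genes called in either direction, and without KD 2, 1 in each direction, with 9.25%. Without KD 3 there were 10 higher and 4 lower, with 40.9% of all genes called, and without control 2 there were 10 and 2, with 13.9%. Control 2 was the highest control in 21 of the 27 members, against 25.2% of all genes. KD 3 was the highest KD library in 15 of the 27, against 29.8% of all genes. Both libraries also led their groups in G2/M genes and in Lyz2, and the part of these differences in the results was not tested. Leaving out both, an alternative chosen after seeing the data, gave 12 members higher and 4 lower, with 39% of all genes called. In the fit without a filter, 2 members were called higher (Mcm2 and Mcm3) and 3 lower (Rfc2, Cdc45 and Prim2), against 4.71% of all genes.

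**Figure D2:**
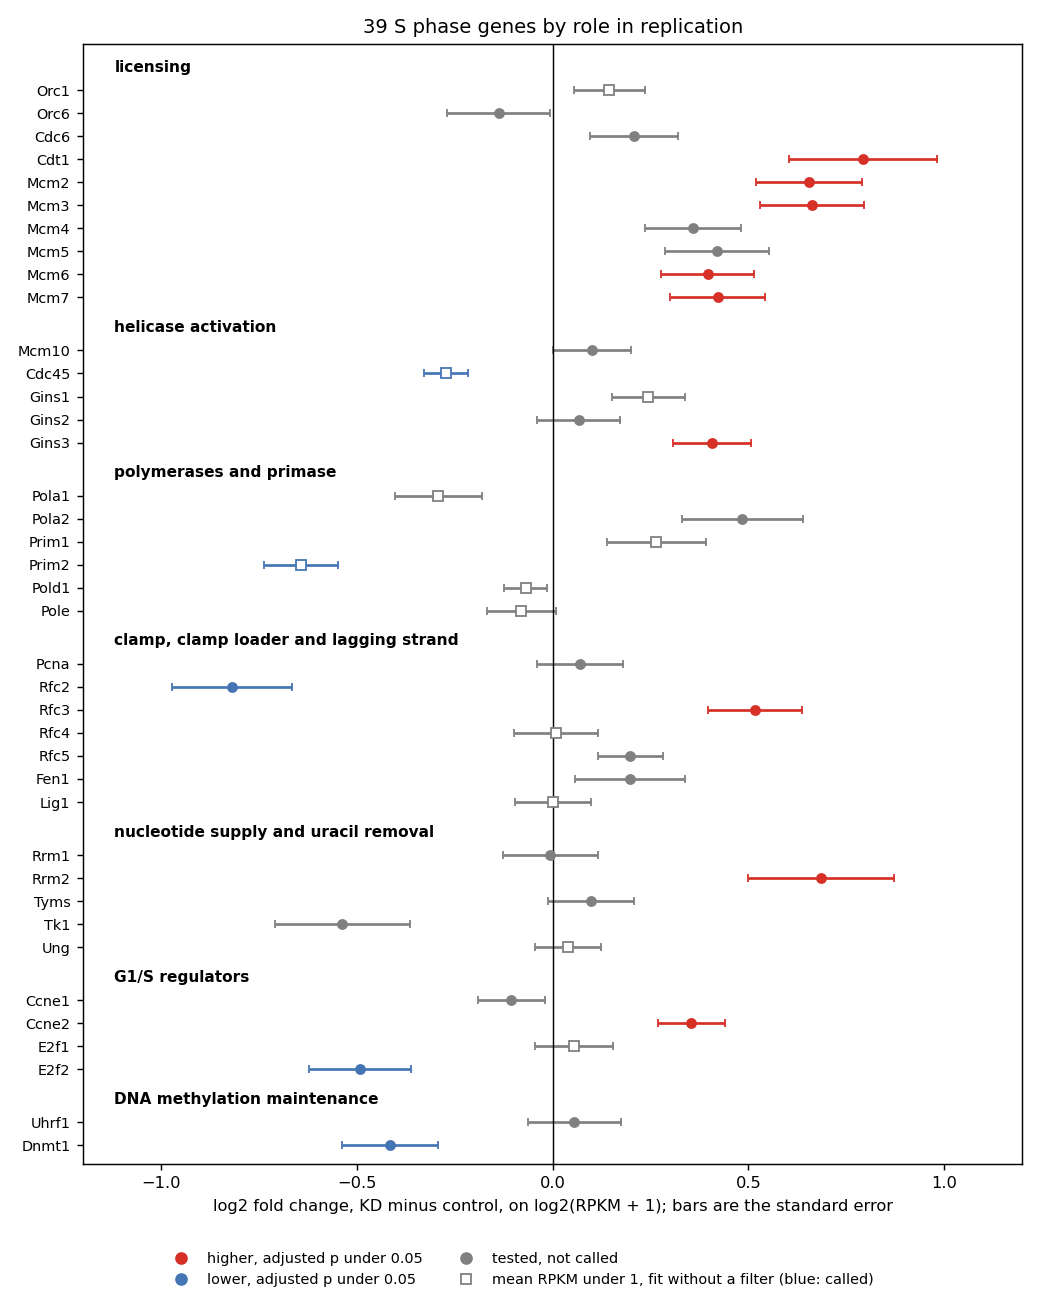
Log2 fold change of the 39 S phase genes, KD minus control on log2(RPKM + 1) (x axis), with the standard error as bars (3 KD and 3 control libraries), grouped by role. Red marks genes called higher, blue genes called lower, and open squares genes of mean RPKM under 1 from the fit without a filter; Mcm2 to Mcm7 all lie to the right of 0 and Rfc2 lies farthest to the left on this scale, which understates changes of low genes.

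Licensing factors were the group with most genes that rose. Of 9 tested, 5 were higher and none was lower, where 11.5% and 12.4% of all genes tested were. All KD libraries exceeded all controls in 7 of the 9, against 22.9% of all genes. Cdt1, which loads the helicase together with CDC6 (chr8:122568015-122573554, GRCm38, Gencode vM21, as for the other genes below), was at 3.38, 1.91 and 1.75 RPKM in KD 1 to 3 and at 0.917, 1.17 and 0.628 in controls. KD 1 stood above the other KD libraries, and the groups did not overlap. The mean was 2.60 times that of controls, with a log2 fold change of 0.79 ± 0.19 (SE, adjusted p = 0.0225). Without KD 1 it was 0.58, with an adjusted p of 0.0443. Leaving out KD 2, control 1 or control 3 ended the call, at adjusted p-values of 0.0515, 0.0827 and 0.0918.

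All 6 subunits of the MCM2-7 ring were higher in every KD library than in every control, and 4 of them were called. Their summed level was 24.8, 25.8 and 24.3 RPKM in KD and 14.1, 19.99 and 14.8 in controls, so that control 2 lay between the other controls and the KD libraries. Mcm2 (chr6:88883474-88898780) was at 3.52, 3.56 and 2.87 RPKM in KD and 1.45, 2.28 and 1.54 in controls (log2 fold change 0.66 ± 0.14 SE, adjusted p = 0.0155). Mcm3 (chr1:20802968-20820312) was at 4.39, 5.32 and 4.53 RPKM in KD and 2.34, 3.34 and 2.28 in controls (0.66 ± 0.13, adjusted p = 0.0146). These were the ring subunits with the greatest difference, at 1.89 and 1.79 times the control mean.

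Mcm6 (chr1:128331590-128359664) was at 4.16, 4.32 and 3.51 RPKM in KD and 2.56, 3.33 and 2.51 in controls, a narrow separation of KD 3 from control 2. Its log2 fold change was 0.40 ± 0.12 (SE, adjusted p = 0.0457). Mcm7 (chr5:138164583-138172422) was at 4.65, 4.32 and 4.12 RPKM in KD and 2.52, 3.65 and 2.93 in controls, with a log2 fold change of 0.42 ± 0.12 (adjusted p = 0.0395). Exons of Mcm7 overlap those of Cops6 and Ap4m1 on the opposite strand, and no source states whether reads were counted by strand. Scaling by the median of ratios put both genes just above the threshold, at adjusted p-values of 0.0568 and 0.0516.

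Mcm4 and Mcm5 did not overlap between groups but were not called. Mcm4 was at 3.885 to 4.604 RPKM in KD and 2.71 to 3.78 in controls (log2 fold change 0.36 ± 0.12 SE, adjusted p = 0.0663). Mcm5 was at 3.78 to 4.63 and 2.39 to 3.61 (0.42 ± 0.13, adjusted p = 0.0525). The called ring subunits kept an adjusted p under 0.05 without KD 3 (0.00524 to 0.0254) and without control 2 (0.0165 to 0.0400), and without control 2 Mcm4 and Mcm5 were called too, at 0.0391 and 0.0389. Without control 1 the 4 called subunits had adjusted p-values of 0.0692 to 0.162, without control 3 of 0.0706 to 0.170 and without KD 2 of 0.0520 to 0.130. Without KD 1, Mcm2 and Mcm3 remained called (0.0498 and 0.0363) while Mcm6 and Mcm7 did not (0.116 and 0.107).

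Across transcript accessions, each ring subunit behaved as its mean. Every accession of mean RPKM of at least 1 had all KD libraries above all controls, in number 3 for Mcm2, 4 for Mcm3, 4 for Mcm4, 5 for Mcm5, 5 for Mcm6 and 8 for Mcm7. Accessions of a gene share reads and are not independent.

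Unlike Cdt1, the other 3 licensing factors outside the ring were not called. Orc1, the largest subunit of the origin recognition complex, was at 0.606, 0.447 and 0.490 RPKM in KD and 0.367, 0.468 and 0.277 in controls (log2 fold change 0.14 ± 0.092 SE, adjusted p = 0.400, fit without a filter). Its groups overlapped through KD 2 and control 2. Orc6, a further subunit of that complex, was at 4.96 to 7.15 RPKM in KD and 6.41 to 7.29 in controls (-0.14 ± 0.13, adjusted p = 0.466). Cdc6, the partner of CDT1 in loading, was at 1.14 to 1.34 and 0.746 to 1.22 (0.21 ± 0.11, adjusted p = 0.204).

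**Figure D3:**
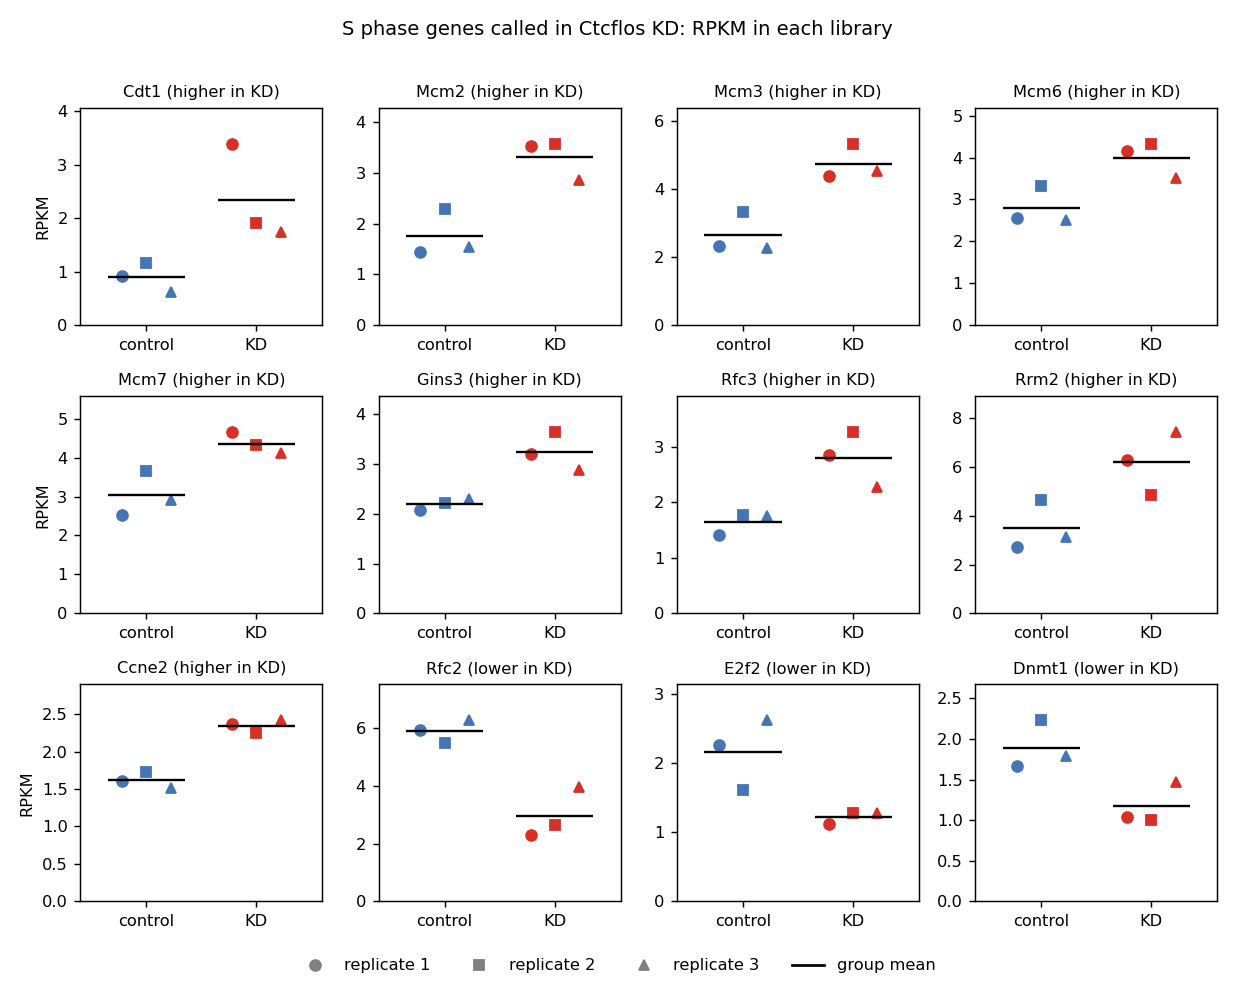
RPKM (y axis, from 0) of the 12 S phase genes called in Ctcflos KD, in each of 3 control (blue) and 3 KD (red) libraries, with lines at the group means and a symbol for each replicate number. The groups do not overlap in any panel; control 2 (blue square) is the control nearest to KD in each MCM panel, and KD 3 (red triangle) is the KD library nearest to controls in Rfc2.

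Of the proteins that activate the helicase, Gins3 was the only one of 3 tested that was called. Mcm10, a factor that helps the helicase to unwind DNA, was at 1.04, 1.03 and 1.21 RPKM in KD and 0.8814, 1.150 and 0.8347 in controls (log2 fold change 0.10 ± 0.099 SE, adjusted p = 0.478), with overlap through control 2. Gins3 (chr8:95633453-95645060), a subunit of the GINS tetramer, was at 3.21, 3.64 and 2.89 RPKM in KD and 2.08, 2.21 and 2.31 in controls. The controls were close together and below every KD library, and the log2 fold change was 0.41 ± 0.099 (adjusted p = 0.0235). The call held without KD 3 (0.00614) and was lost without any other library, at adjusted p-values of 0.0600 to 0.102.

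Of the other GINS subunits listed, neither was called. Gins2 was at 1.76 to 2.46 RPKM in KD and 1.80 to 2.05 in controls (log2 fold change 0.07, adjusted p = 0.676). Gins1, from the fit without a filter, was at 0.785 to 0.970 in KD and 0.526 to 0.707 in controls, without overlap and at 1.49 times the control mean, near the 1.48 times of Gins3 (0.24, adjusted p = 0.178). Cdc45, which bridges the ring and GINS in the active helicase, had the opposite sign: it was at 0.113, 0.0762 and 0.154 RPKM in KD and 0.300, 0.414 and 0.327 in controls, or 32.9% of the control mean (-0.27 ± 0.056 SE, adjusted p = 0.0452, fit without a filter). This value is the mean over 6 accessions. The Ensembl transcript of known length among them held 2 or 3 reads per KD library and 13 to 25 per control. Exons of Cdc45 overlap those of Ufd1 on the other strand. Without KD 3 its adjusted p was 0.0359, and leaving out any other library ended the call (0.0944 to 0.145).

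Polymerase and primase genes were mostly of low abundance, and only Pola2 of 6 reached a mean of 1 RPKM. Primase and polymerase alpha form 1 complex of 4 subunits, and those subunits differed in sign. Pola1, the catalytic subunit of polymerase alpha, was at 0.199, 0.227 and 0.443 RPKM in KD and 0.510, 0.741 and 0.483 in controls. All KD libraries were below all controls, KD 3 only just so (log2 fold change -0.29 ± 0.11 SE, adjusted p = 0.172, fit without a filter). Pola2, its regulatory subunit, was at 2.32, 2.19 and 1.27 RPKM in KD and 0.884, 1.13 and 1.195 in controls, again with KD 3 next to the controls (0.48 ± 0.15, adjusted p = 0.0545). Without KD 3 the adjusted p of Pola2 was 0.00260.

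The primase subunits parted as well. Prim1, the catalytic subunit, was at 0.890, 0.989 and 1.51 RPKM in KD and 0.722, 0.829 and 0.725 in controls (log2 fold change 0.26 ± 0.13 SE, adjusted p = 0.262, fit without a filter). Prim2, the large subunit, was at 0.399, 0.468 and 0.535 RPKM in KD and 1.13, 1.42 and 1.34 in controls, at 36.2% of the control mean (-0.64 ± 0.094, adjusted p = 0.0276, fit without a filter). Its groups were far apart, and all 3 of its accessions of mean RPKM of at least 1 were lower in every KD library. The call of Prim2 held without KD 3 (0.0157) and was lost without any other library (0.0737 to 0.134). Pold1 and Pole, the catalytic subunits of the lagging and leading strand polymerases, were at 0.124 to 0.234 and 0.397 to 0.510 RPKM in KD against 0.206 to 0.270 and 0.459 to 0.629 in controls, with overlap (adjusted p = 0.513 and 0.625).

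Pola1 and Prim2 are the 2 members whose genes span over 100 kb, at 327 and 216 kb, and both were at lower levels in KD. Over the 39 genes, which span 4.15 to 327 kb, Spearman's rho of the log2 fold change with the span was -0.38, and -0.25 over the 27 tested, values that describe genes measured in the same 6 libraries. The members lie on 15 chromosomes, and 13 share exonic sequence with another gene.

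Members of the clamp loader were called in opposite directions. Pcna, the sliding clamp, was at 6.50, 8.23 and 7.72 RPKM in KD and 7.09, 7.19 and 6.87 in controls. The KD libraries spread on both sides of the controls (log2 fold change 0.07 ± 0.11 SE, adjusted p = 0.662). Rfc2 (chr5:134581366-134601805), a small subunit of replication factor C, was at 2.29, 2.66 and 3.95 RPKM in KD and 5.95, 5.50 and 6.27 in controls. Every KD library was well below the lowest control, KD 3 the least so, and the mean was at 50.2% of controls (-0.82 ± 0.15, adjusted p = 0.0117). This was the lowest adjusted p among the members, and it held in every setting tried except without control 1 (0.0565) or control 3 (0.0589). Exons of Rfc2 overlap those of Lat2 on the opposite strand.

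Rfc3 (chr5:151642756-151651242), another small subunit, went the other way, at 2.85, 3.26 and 2.28 RPKM in KD and 1.42, 1.77 and 1.75 in controls. The groups did not overlap, and the log2 fold change was 0.52 ± 0.12 (SE, adjusted p = 0.0213). The call held without KD 3 (0.00342) or control 2 (0.0490), and the adjusted p was 0.0604 to 0.0942 without any other library. Rfc5 was at 2.78 to 2.80 RPKM in KD and 2.25 to 2.42 in controls, without overlap but not called (0.20, adjusted p = 0.117), and Rfc4 was at 0.757 to 1.06 and 0.706 to 0.964 (0.01, adjusted p = 0.973, fit without a filter). Summed over Rfc2 to Rfc5, the level was 8.70 to 10.1 RPKM in KD and 10.56 to 10.98 in controls. The enzymes of the lagging strand, the flap nuclease Fen1 and the ligase Lig1, were at 6.64 to 7.72 and 0.289 to 0.546 RPKM in KD against 5.15 to 7.66 and 0.375 to 0.484 in controls, with overlap (adjusted p = 0.330 and 0.998).

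In nucleotide supply, 1 of 4 tested genes was called. Ribonucleotide reductase, which makes deoxyribonucleotides, pairs a large subunit that lasts through the cell cycle with a small one that is made in S phase. Rrm1, the large subunit, was at 6.35, 7.04 and 7.33 RPKM in KD and 6.05, 8.06 and 6.83 in controls, with overlap and a log2 fold change of -0.01 ± 0.12 (SE, adjusted p = 0.972). Rrm2 (chr12:24708241-24714146), the S phase subunit, was at 6.30, 4.86 and 7.42 RPKM in KD and 2.70, 4.64 and 3.15 in controls. KD 2 and control 2 nearly met, and the other libraries were far apart (0.69 ± 0.19, adjusted p = 0.0339, 1.77 times the control mean). Leaving out KD 1, control 1 or control 3 ended this call (0.0886, 0.127 and 0.121).

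In thymidine metabolism, neither Tyms nor Tk1 was called. Tyms, thymidylate synthase, was at 2.06 to 2.28 RPKM in KD and 1.71 to 2.43 in controls (log2 fold change 0.10, adjusted p = 0.540). Tk1, the S phase thymidine kinase of the salvage pathway, was at 2.30, 2.02 and 3.91 RPKM in KD and 4.19, 4.53 and 4.22 in controls. The groups did not overlap, and KD 3 was again the KD library nearest to controls (-0.54 ± 0.17 SE, adjusted p = 0.0562). Without KD 3 the adjusted p of Tk1 was 0.00101, and exons of Tk1 overlap those of Afmid on the opposite strand. Ung, the uracil glycosylase, was at 0.939 to 1.03 and 0.860 to 1.02 RPKM (0.04, adjusted p = 0.809, fit without a filter).

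The regulators of entry into S phase differed between paralogs. Ccne1, cyclin E1, was at 1.149, 1.003 and 1.174 RPKM in KD and 1.28, 1.24 and 1.29 in controls, all KD libraries below all controls by a small step (log2 fold change -0.11 ± 0.086 SE, adjusted p = 0.383). Ccne2 (chr4:11191351-11204779), cyclin E2, was at 2.36, 2.25 and 2.42 RPKM in KD and 1.61, 1.73 and 1.51 in controls. Replicates were tight and the groups well apart (0.35 ± 0.086, adjusted p = 0.0234, 1.45 times the control mean). All 8 of its accessions of mean RPKM of at least 1 were above controls in every KD library, although exons of Ccne2 overlap those of Ints8 on the other strand. The call held without KD 3 or control 2 (0.0195 and 0.0481) and was lost without the others (0.0564 to 0.113).

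E2f1, an activator of the G1/S burst, was at 0.970 to 1.09 RPKM in KD and 0.824 to 1.16 in controls (log2 fold change 0.05, adjusted p = 0.782, fit without a filter). E2f2 (chr4:136172394-136196057), an activator of the same subclass, was at 1.13, 1.27 and 1.28 RPKM in KD and 2.26, 1.61 and 2.62 in controls. It fell, with all KD libraries close together below the lowest control (-0.49 ± 0.13 SE, adjusted p = 0.0302, 56.8% of the control mean). The call held without KD 3 or control 2 (0.0259 and 0.0209) and was lost without the others (0.0759 to 0.118).

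The pair that copies DNA methylation onto new strands was split too. Uhrf1, which recruits the methyltransferase to hemimethylated DNA, was at 3.28, 3.26 and 3.38 RPKM in KD and 2.73, 3.90 and 2.90 in controls. Control 2 was above and the other controls below all KD libraries (log2 fold change 0.06 ± 0.12 SE, adjusted p = 0.759). Dnmt1 (chr9:20907209-20959888), the maintenance methyltransferase, was at 1.04, 0.998 and 1.48 RPKM in KD and 1.66, 2.23 and 1.79 in controls, with all KD libraries below all controls (-0.42 ± 0.12, adjusted p = 0.0422, 61.9% of the control mean). Among single omissions only that of KD 3 kept the call (0.00906), and the others gave 0.0908 to 0.123.

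Of 55 other replication genes, 37 were tested, and 7 were higher and 3 lower, a share close to the 24% of all genes that were called. Their median log2 fold change was 0.10. Among those that rose were the mismatch repair gene Msh6 (0.80, adjusted p = 0.00924), the histone chaperone Nasp (0.56, adjusted p = 0.00924) and Dbf4 (0.57, adjusted p = 0.0108), the activator of the kinase that fires licensed origins. Msh6 was at 5.49 to 7.55 RPKM in KD and 3.12 to 3.99 in controls. Among those that fell were the single-strand binding subunit Rpa3 (-0.37, adjusted p = 0.0411) and the polymerase delta subunit Pold3 (-0.29, adjusted p = 0.0437). None of the 37 was called without control 1 or without control 3, where 3.71% and 3.62% of all genes were. Without KD 3, 13 higher and 8 lower were called, with 40.9% of all genes called. Without KD 1, KD 2 or control 2 there were 4, 3 and 4 higher and 1 lower in each case. The calls over all genes were then 9.96%, 9.25% and 13.9%.

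Upstream of the S phase genes, 34 further G1/S regulators were listed, and 6 of 26 tested were higher and 1 lower, again close to the 24% of all genes. The median log2 fold change was 0.03. Ccnd1, cyclin D1, was at 3.63, 2.92 and 4.35 RPKM in KD and 1.17, 2.18 and 1.14 in controls (0.90 ± 0.18 SE, adjusted p = 0.0139). E2f5 (0.56, adjusted p = 0.0150) and Cdk2 (0.35, adjusted p = 0.0291), the kinase partner of cyclin E, also rose, and E2f4, like E2f5 an E2F of repressor complexes, fell (-0.36, adjusted p = 0.0306). Without control 1 or control 3 none was called, and 3.71% and 3.62% of all genes were. Without KD 1, KD 2 or control 2 there were 2 higher and none lower, with 9.96%, 9.25% and 13.9% of all genes called. Without KD 3 there were 9 and 3, with 40.9% of all genes called.

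Genes of G2 and mitosis were not called in either direction. None of 20 tested of 24 listed had an adjusted p under 0.05 by limma, and none an unadjusted p under 0.05. Over all genes tested the shares were 24% and 38.9%. Their median log2 fold change was 0.09, and those with the smallest p were Aurka, a mitotic kinase (-0.30, adjusted p = 0.147), and Cdc20, an activator of the anaphase-promoting complex (0.27, adjusted p = 0.186). Their levels varied between libraries of a group: summed over the list they were at 60.5, 61.3 and 82.8 RPKM in KD and 57.6, 75.4 and 57.8 in controls. Control 2 was the highest control in 20 of 20 of these genes, against 25.2% of all genes. Without KD 3, 1 was called lower, with 40.9% of all genes called in either direction.

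Replication-dependent histone genes, whose RNA is made in S phase and lacks a poly(A) tail in its common form, were the list in which most genes had a negative sign. Of 54 tested of 69, none was higher, 6 were lower and 42 were below 0 in log2 fold change. The median was -0.22. The 6 are a share near the 12.4% of all genes called lower. In 15 all KD libraries were below all controls, and in 2 above, against 21.9% and 22.9% of all genes. Hist1h4f was at 23.4 to 25.3 RPKM in KD and 34.8 to 37.6 in controls (-0.56 ± 0.11 SE, adjusted p = 0.0129), and Hist1h1d, a linker histone, at 7.14 to 8.88 and 11.3 to 14.6 (-0.60 ± 0.13, adjusted p = 0.0175), with Hist4h4 next (-0.44, adjusted p = 0.0216). Summed levels were 745 to 827 RPKM in KD and 871 to 1000 in controls. Single histone genes are near-identical copies that can share reads, so values of each are uncertain. Calls ended without control 1 or control 3, where 304 and 281 of all 11701 genes were lower. Without KD 1 or KD 2, 2 were lower, against 694 and 622 of all genes. Without KD 3, 11 were lower and 2 higher, against 2060 and 2724 of all genes. Scaling by the median of ratios gave 11 lower, against 1600 of all genes.

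**Figure D4:**
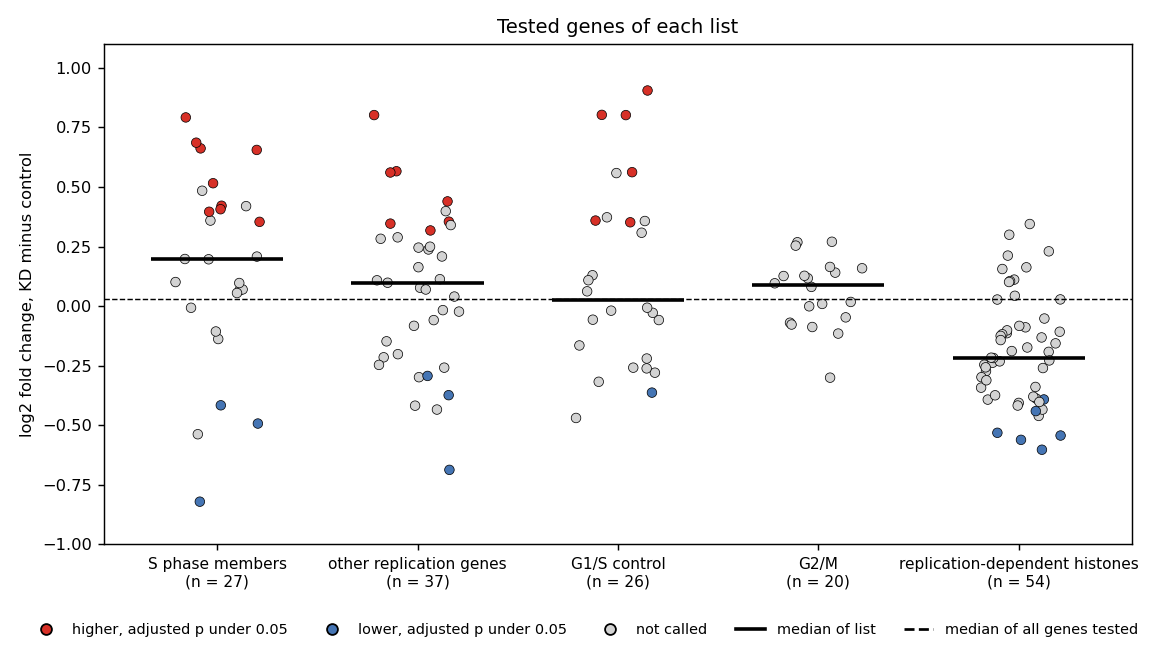
Log2 fold change, KD minus control (y axis), of each tested gene in 5 lists, with thick lines at the median of the list and a dashed line at the median of all genes tested; red and blue mark genes called higher and lower. The median is 0.20 for S phase genes, 0.09 for G2/M genes and -0.22 for replication-dependent histone genes.

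By library, the S phase genes and the G2/M genes had similar medians in the controls. They parted in KD 1 and KD 2, while in KD 3 both were high. Relative to the control mean on the log2 scale, the median of the 27 S phase genes was 0.20, 0.25 and 0.20 in KD 1 to 3 and -0.09, 0.16 and -0.03 in control 1 to 3. Control 2 was thus nearer to the KD libraries than to the other controls. For G2/M genes the medians were -0.03, 0.01 and 0.26 in KD and -0.10, 0.17 and -0.08 in controls, so that KD 3 and control 2 were high and the other 4 libraries close together. For histone genes they were -0.20, -0.31 and -0.15 in KD and -0.05, -0.03 and 0.12 in controls, with every KD library lower. No difference between lists was tested.

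**Figure D5:**
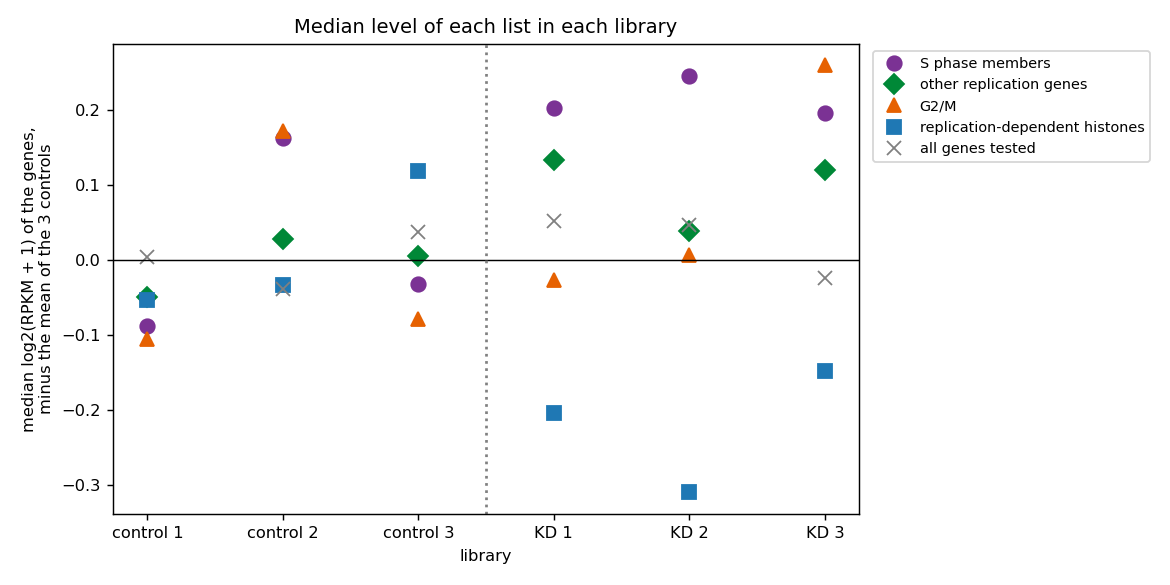
Median log2(RPKM + 1) of the tested genes of each list, minus the mean of the 3 controls (y axis), in each of the 6 libraries (x axis). S phase genes are between 0.20 and 0.25 in KD libraries and at 0.16 in control 2, and G2/M genes are high only in control 2 and KD 3.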

How the data were processed

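The study sequenced total RNA of 6 libraries, pooled in 1 lane, 3 of Ctcflos KD and 3 of nontargeting control. The authors deposited 1 table of RPKM values (reads per kilobase scaled to the mapped reads of a library) in 168326 lines of RefSeq, Ensembl and GenBank accessions, written with decimal commas. For the splice analysis the study names STAR on GRCm38; how this table was counted is not given in the sources used here. The depth was read from low RPKM values, of which at least 95.1% per library lie within 0.05 of a whole number of reads.

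After 305 exact repeats were removed, the RPKM of a gene was the mean over its accessions. Genes of mean RPKM of at least 1 were tested by limma-trend (limma 3.58.1, R 4.3.3) on log2(RPKM + 1), without a count test, since the table holds no counts. The Benjamini-Hochberg adjustment took in every gene of a fit, with calls at 0.05. Fold changes on this scale understate changes of low genes. Genes under the filter were taken from a fit without it. An exact permutation test of 3 libraries against 3 cannot go below p = 0.1 and was not used. The code was tested on simulated data.

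All 39 genes are described by role, with every library for called genes and for the first of each role; of other lists, at most 3 called genes in each direction are named, or the 2 of smallest p. The values of 1 gene of these lists are not reported here. Mcm4, Mcm5, Gins1, Cdc45, Prim1, Prim2, Pola2 and Tk1 were given more values after these had been seen. The genes and lists were chosen with earlier results of these data known. Gene positions are from Gencode vM21 (GRCm38) and promoters from RefSeq (GRCm38.p6). Alternatives were a pseudocount of 0.1, no filter, a replicate block, median-of-ratios scaling, RefSeq mRNA accessions alone, and leaving out each library. Python 3.11.15, pandas 2.3.3 and matplotlib 3.10.9 were used.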

Additional observations from a re-analysis of the deposited data

How the results depend on the processing

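Directions of the called S phase genes held in every alternative, and a pseudocount of 0.1 changed no call among the 39 genes. Without a filter on low values 750 genes were higher in all, with 2 higher of the S phase genes (Mcm2 and Mcm3), 3 higher and 1 lower of the other replication genes, 2 higher and 0 lower of the G1/S regulators, and 2 lower of the histone genes. The correction then covers 38335 genes. With RefSeq mRNA accessions alone, 5 S phase genes were lower (Rfc2, E2f2, Dnmt1, Prim2 and Tk1), 11 other replication genes higher, 3 G1/S regulators lower and 1 histone gene higher. In that setting 30.4% of 9343 genes were called. Scaling by the median of ratios gave 11 lower histone genes, with 1600 of 11701 genes lower in all. Replicate numbers are shared by the groups, but deviations of same-numbered libraries correlated at 0.287, -0.288 and -0.418 over 11701 genes, so that the numbers do not pair the libraries. With the replicate block, 746 genes were higher and 925 lower in all, 4 S phase genes higher and 1 lower, 4 and 1 of the other replication genes, 2 and 0 of the G1/S regulators, 3 lower of the histone genes, and Ctcflos had a log2 fold change of -0.66 with an adjusted p of 0.114.

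Leaving out 1 library gave 130 to 2724 genes higher and 281 to 2060 lower in all, 0 to 10 and 0 to 4 of the S phase genes, 0 to 13 and 0 to 8 of the other replication genes, 0 to 9 and 0 to 3 of the G1/S regulators, 0 to 0 and 0 to 1 of the G2/M genes, and 0 to 2 and 0 to 11 of the histone genes. Ctcflos ranged from -0.72 to -0.63, with an adjusted p above 0.05 in 5 of the 6. Leaving out KD 3 and control 2 together gave 2392 genes higher and 2166 lower, 12 S phase genes higher, a Ctcflos log2 fold change of -0.73, 6 other replication genes lower, 3 G1/S regulators lower, 1 G2/M gene in each direction and 11 histone genes lower. The sign turned only in uncalled genes near 0. On leaving out 1 library, Gins2 ranged from -0.0182 to 0.143, Rfc4 from -0.0582 to 0.0581, Lig1 from -0.0560 to 0.0753, Rrm1 from -0.0922 to 0.0883 and Uhrf1 from -0.0220 to 0.176. Gins2 was at -0.0018 with RefSeq accessions and Rfc4 at -0.0051 under the median of ratios, and without KD 3 and control 2 Rfc4 was at -0.0230, Lig1 at 0.0049 and Rrm1 at 0.0497. The causes were not tested. With 3 libraries a group, genes under 1 RPKM rest on few reads.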
